A study of Mus musculus with 10 samples.

Results

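The 10 genes described here encode innate sensors that can detect an adenoviral vector, together with their adaptor and transcription factors: the Toll-like receptor genes Tlr2, Tlr3, Tlr4, Tlr7 and Tlr9, the adaptor gene Myd88, the cytosolic DNA-sensing genes Mb21d1 (cGAS) and Tmem173 (STING), and the interferon regulatory factor genes Irf3 and Irf5. They were taken by gene symbol and are 10 of the 24016 RefSeq transcripts in the deposited table. Liver RNA was sequenced from male C57BL/6 mice aged 8 to 12 weeks, 6 days after injection into the tail vein. The AdVEGFA group (5 mice) received an adenovirus of serotype 5 that carried VEGF-A, the vascular endothelial growth factor, under the CMV promoter. The AdCMV group (5 mice) received the empty adenovirus, with the CMV promoter and no transgene. Both groups therefore carried a vector, and a mouse without a vector was not analysed here, so the comparison shows what differed between the transgene and the empty vector and not the response to the vector itself. Expression was given as RPKM, reads per kilobase of transcript set against the mapped tags of the library. The liver was sampled as whole tissue, so that fewer cells of a type and less RNA per cell cannot be told apart.

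Adenoviral particles meet pattern recognition receptors at the cell surface (TLR2 and TLR4) and in endosomes (TLR3, TLR7 and TLR9), and all of these but TLR3 signal through MyD88 to NF-kB and, in some cells, to IRF5 and IRF7. In the cytosol, cGAS binds DNA and makes cyclic GMP-AMP, which activates STING and, through the kinase TBK1, IRF3. The liver takes up most of an intravenous adenovirus, largely in Kupffer cells, sinusoidal endothelial cells and hepatocytes.

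The libraries held between 5596560 and 13494000 mapped tags, recovered from the steps of the RPKM values. Transcripts of the major urinary protein (Mup) genes, which hepatocytes make in large amounts, took 42.2%, 39.6%, 18.004%, 50.5% and 32.4% of the reads in AdCMV livers and 17.0%, 17.1%, 7.84%, 11.2% and 28.6% in AdVEGFA livers. The Mup share was therefore lower in most AdVEGFA libraries, and the groups overlapped. These shares are of the reads summed over transcripts, which came to 2.31% to 13.9% more than the mapped tags, most in AdCMV replicate 4, so that some tags were counted at more than 1 transcript. RPKM values are scaled to the mapped tags of each library. The log2 fold change had a median of 0.38 over the 13933 genes tested on the deposited RPKM and of -0.0044 after median-ratio scaling, which sets each library against the typical gene. Log2 fold changes below are AdVEGFA minus AdCMV on log2(RPKM + 0.1), so they understate changes of weakly expressed genes, and values after median-ratio scaling are given beside those of the deposited RPKM for the 10 genes and for the named pathway genes that were called. Genes were called where limma gave an adjusted p below 0.05 together with an absolute log2 fold change above 1. By that rule 1808 genes were called higher and 214 lower in AdVEGFA livers, so that 89.4% of the calls were higher, against 1082 higher and 438 lower, or 71.2% higher, after median-ratio scaling.

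Of the 10 genes, Tlr2 was lower in AdVEGFA livers and the other 9 were not called. All 10 genes passed the filter, which asks for a mean above 0.5 RPKM in either group, Tlr9 narrowly and only through its mean of 0.501 RPKM in AdCMV livers. None of the 10 was called higher by limma, where 13% of all genes tested were, with 2 of the 10 higher at an unadjusted p under 0.05 and 0 called higher by limma voom on recovered reads. The count called lower was 1 of 10, against 1.54% of all genes. After median-ratio scaling the counts were the same, 0 higher and 1 lower, beside 7.77% and 3.14% of all genes. With that scaling 1 of the 10, Irf5, was higher at an unadjusted p under 0.05, and Tlr2 and Myd88 were lower. In 1 of the 10 genes, Tlr2, every AdVEGFA mouse lay below every AdCMV mouse, which was so for 1.29% of all genes, and in none did every AdVEGFA mouse lie above, which was so for 14.3%. The median log2 fold change of the 10 genes was 0.29, beside 0.38 for all genes tested, and -0.11 after median-ratio scaling, beside -0.0044.

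**Figure D1:**
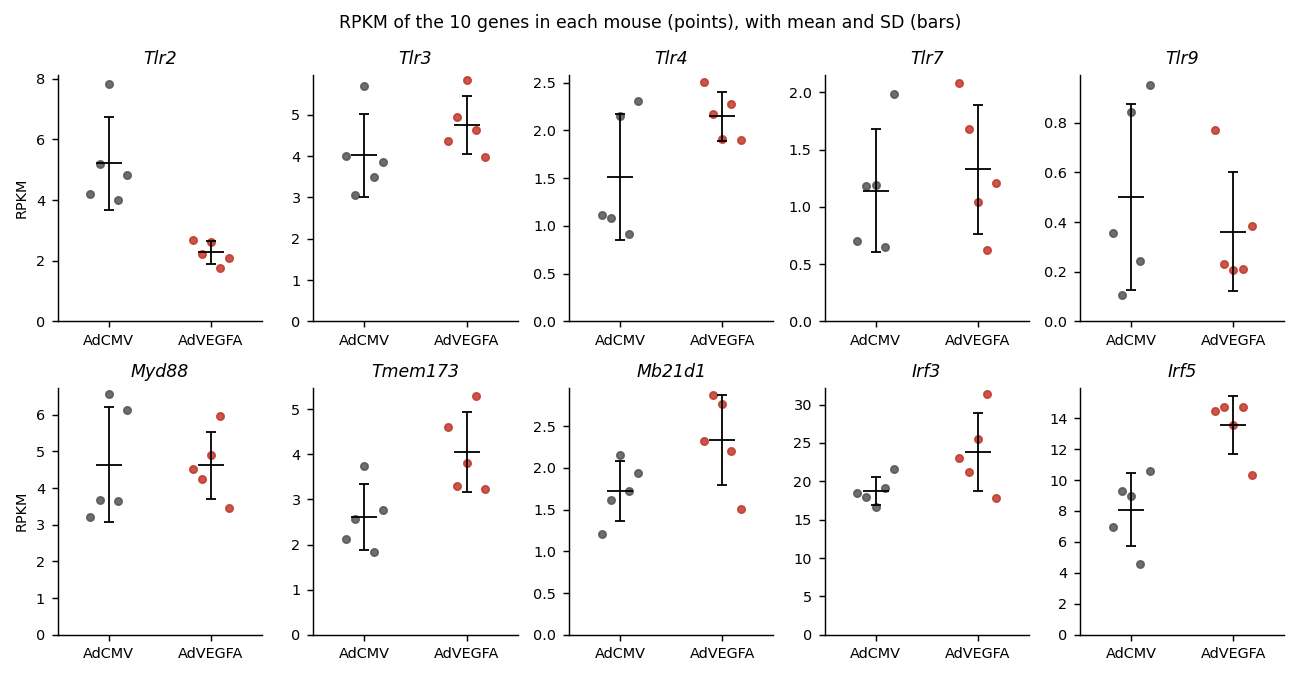
RPKM of each of the 10 genes in the 5 AdCMV and 5 AdVEGFA livers, 1 point per mouse, with the mean and SD as bars on axes that start at 0. The groups are apart for Tlr2, which was between 4.02 and 7.84 RPKM in AdCMV livers and between 1.77 and 2.69 in AdVEGFA livers, and overlap for the other 9 genes.

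The order of the levels, per length of transcript, was led by Irf3 and Irf5 and closed by Tlr7 and Tlr9 in both groups. In AdCMV livers the means ran from Irf3 (18.8 RPKM) through Irf5 (8.09), Tlr2 (5.22), Myd88 (4.64), Tlr3 (4.02), Tmem173 (2.60), Mb21d1 (1.73), Tlr4 (1.51) and Tlr7 (1.14) to Tlr9 (0.501). Only Irf3 was apart from its neighbour in that order, and the ranges of all other neighbours overlapped. In AdVEGFA livers Tlr2 was 7th in the order and not 3rd, with a mean of 2.28 RPKM between Mb21d1 (2.34) and Tlr4 (2.15), and its range overlapped with both. In that group Irf3 was apart from Irf5, Irf5 from Tlr3 and Tmem173 from Mb21d1, and the other neighbours overlapped.

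Tlr2, at chr3:83640194-83645530 on the minus strand of mm9, encodes the surface receptor for lipoproteins, which also takes part in the response to adenoviral particles. Its level was 4.22, 5.2, 7.84, 4.02 and 4.81 RPKM in AdCMV livers and 2.69, 2.22, 2.63, 1.77 and 2.09 RPKM in AdVEGFA livers. All 5 AdVEGFA mice were below all 5 AdCMV mice, and AdCMV replicate 3 was the highest. The means were 5.22 ± 1.54 (SD, n = 5) and 2.28 ± 0.385 (SD, n = 5) RPKM, from 79 to 200 and 40 to 47 reads per library. The log2 fold change was -1.13 (SE 0.23, 95% interval -1.62 to -0.65), with an adjusted p of 0.00170 by limma. After median-ratio scaling it was -1.52, with an adjusted p of 1.03e-05, and over 32 alternatives the adjusted p ran from 7.96e-06 to 0.00571. On the deposited RPKM the fold lay close to that of a call, and the call was lost without AdCMV replicate 3 (-0.98), with a pseudocount of 1 (-0.90) and with limma treat, which asks whether the fold exceeds that of a call.

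Promoter windows, from 250 bases before to 50 after the start of the transcript, were found in RefSeq (GRCm38.p6) for 7 of the 10 genes, and not for Tlr4, Tlr7 and Tmem173. They were searched on both strands for the NF-kB consensus, for TTCNNNGAA (the GAS element, found at genes that interferon gamma induces) and for the core of the interferon-stimulated response element (ISRE), which is GAAA, any 2 bases and GAAA. Of all 32851 promoter windows, 8.46% held the NF-kB consensus, 8.30% held GAS and 3.44% held the ISRE core. Among the 7 genes, the NF-kB consensus was in 2 windows, those of Tlr2 and Tlr3, and GAS and the ISRE core were each in 1, that of Myd88. The window of Tlr2 is shown as that of the gene called lower (chr3:83841559-83841858, minus strand, GRCm38.p6), with the NF-kB matches in capitals.
Tlr2: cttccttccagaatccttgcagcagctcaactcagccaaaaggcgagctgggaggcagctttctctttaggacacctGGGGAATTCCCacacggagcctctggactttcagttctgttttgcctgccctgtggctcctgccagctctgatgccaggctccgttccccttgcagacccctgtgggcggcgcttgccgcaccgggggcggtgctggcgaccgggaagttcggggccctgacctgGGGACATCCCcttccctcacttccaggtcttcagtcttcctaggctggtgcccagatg

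Tlr4, at chr4:66488845-66503830 on the plus strand of mm9, encodes the receptor for lipopolysaccharide, the other surface receptor among the 10 genes. It was 1.12, 1.08, 2.15, 0.911 and 2.31 RPKM in AdCMV livers and 2.503, 2.17, 1.91, 2.27 and 1.90 RPKM in AdVEGFA livers. The AdVEGFA mice were all near the level of AdCMV replicates 3 and 5, while AdCMV replicates 1, 2 and 4 were lower, so the groups overlapped. Its log2 fold change was 0.57 (95% interval -0.03 to 1.16, adjusted p 0.145 by limma) and 0.19 after median-ratio scaling, so it was not called. The log2 ratio of Tlr2 to Tlr4 within a library (of RPKM + 0.1, as for the other ratios below), which hardly depends on scaling between libraries, was 1.83, 2.17, 1.82, 2.03 and 1.03 in AdCMV livers and 0.10, 0.03, 0.45, -0.34 and 0.13 in AdVEGFA livers. Tlr2 stood above Tlr4 in all 5 AdCMV mice, the 2 genes were near the same level in the AdVEGFA mice, and the ratios of the groups did not overlap.

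The endosomal receptor genes Tlr3, Tlr7 and Tlr9 were not called and overlapped between the groups. Tlr3 (chr8:46481019-46495893, minus strand of mm9), for the receptor of RNA duplexes, was the most abundant of them, at 3.07 to 5.70 RPKM in AdCMV and 3.99 to 5.84 RPKM in AdVEGFA livers. For Tlr3 the log2 fold change was 0.26 (95% interval -0.19 to 0.71, adjusted p 0.383 by limma) and -0.14 after median-ratio scaling, so its sign depended on the scaling. Tlr7 (chrX:163742858-163768503, minus strand of mm9), for the receptor of guanosine- and uridine-rich RNA, was at 0.647 to 1.99 and 0.625 to 2.08 RPKM, with a log2 fold change of 0.20 (95% interval -0.55 to 0.95) that turned to -0.16 after median-ratio scaling. The values of Tlr7 spread more widely within each group than the means of the groups were apart.

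Tlr9 (chr9:106124929-106129207, plus strand of mm9), for the receptor of CpG DNA, was the weakest of the 10 genes. It was 0.358, 0.107, 0.842, 0.245 and 0.952 RPKM in AdCMV livers and 0.770, 0.233, 0.206, 0.213 and 0.386 RPKM in AdVEGFA livers. AdCMV replicates 3 and 5 and AdVEGFA replicate 1 were high and the rest low, and these values rested on 5 to 23 reads per AdCMV library and 4 to 15 per AdVEGFA library. Its log2 fold change was -0.25 (95% interval -1.31 to 0.81), and -0.53 after median-ratio scaling. It ran from -0.57 without AdCMV replicate 2 to -0.14 without AdVEGFA replicate 3 and was -0.07 by limma voom, and Tlr9 was not called in any of these. The log2 ratio of Tlr7 to Tlr9 within a library, which the added 0.1 draws toward 0 at these low levels, was above 0 in all 10 mice, at 0.46 to 2.64 in AdCMV livers and 1.21 to 2.42 in AdVEGFA livers, and the groups overlapped. Plasmacytoid dendritic cells, a cell type rich in TLR7 and TLR9, were followed by their marker list (Siglech, Ccr9, Klk1, Cox6a2, Pacsin1 and Bcl11a), of which 3 of 6 genes passed the filter and none was called by limma or limma voom or had an unadjusted p under 0.05. Summed, that list stood at 2.47, 2.32, 5.61, 3.81 and 2.66 RPKM in AdCMV livers and 6.68, 7.27, 5.30, 3.61 and 3.74 RPKM in AdVEGFA livers, most of it from Siglech, and no gene of it was listed at 0 in every library.

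Myd88 (chr9:119245106-119249158, minus strand of mm9), the adaptor of the receptors other than TLR3, was not called. Its values were 3.20, 3.67, 6.56, 3.63 and 6.13 RPKM in AdCMV livers and 4.51, 4.26, 4.90, 5.96 and 3.45 RPKM in AdVEGFA livers. AdCMV replicates 3 and 5 and AdVEGFA replicate 4 were the highest, and the groups overlapped throughout. The means were 4.64 ± 1.57 (SD, n = 5) and 4.61 ± 0.922 (SD, n = 5) RPKM, and the log2 fold change was 0.03 (95% interval -0.48 to 0.55, adjusted p 0.933 by limma). The sign of this value was not settled across settings. After median-ratio scaling it was -0.36 (95% interval -0.68 to -0.04, adjusted p 0.0958 by limma). On the deposited RPKM it was -0.083 without AdCMV replicate 1, -0.035 without AdCMV replicate 2, -0.039 without AdCMV replicate 4 and -0.064 without AdVEGFA replicate 4. Its promoter window (chr9:119339969-119340268, minus strand, GRCm38.p6) is shown because it alone among the 7 held a GAS match and an ISRE core match, in capitals, which overlap by 3 bases on the run shown.
Myd88: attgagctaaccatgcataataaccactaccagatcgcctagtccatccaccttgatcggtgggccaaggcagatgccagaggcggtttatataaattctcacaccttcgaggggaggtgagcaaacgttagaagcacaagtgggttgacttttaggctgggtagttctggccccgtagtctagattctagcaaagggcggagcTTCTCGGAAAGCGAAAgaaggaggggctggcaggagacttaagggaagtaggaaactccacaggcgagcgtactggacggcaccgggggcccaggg

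The genes of cytosolic DNA sensing were not called either. Mb21d1 (chr9:78278325-78291044, minus strand of mm9), for cGAS, was 1.20, 1.62, 2.15, 1.72 and 1.94 RPKM in AdCMV livers and 2.33, 2.87, 2.77, 2.203 and 1.51 RPKM in AdVEGFA livers. Of the AdVEGFA mice, 4 were above all AdCMV mice and replicate 5 was among the lowest. The log2 fold change of Mb21d1 was 0.41 (95% interval -0.12 to 0.94, adjusted p 0.234 by limma), close to the median of all genes, and 0.02 after median-ratio scaling. Tmem173, for STING, the endoplasmic reticulum protein that cGAS activates, was 2.13, 2.56, 3.74, 1.83 and 2.76 RPKM in AdCMV livers and 4.61, 3.30, 3.81, 5.30 and 3.24 RPKM in AdVEGFA livers. AdCMV replicate 3 lay within the AdVEGFA range and the other AdCMV mice below it. The log2 fold change of Tmem173 was 0.63 (95% interval 0.13 to 1.14, adjusted p 0.0620 by limma), and 0.24 after median-ratio scaling. The log2 ratio of Mb21d1 to Tmem173 was below 0 in all 10 mice, from -0.77 to -0.08 in AdCMV livers and from -1.23 to -0.20 in AdVEGFA livers, with overlap.

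The transcription factors were the most abundant of the 10 genes. Irf3 (chr7:52253018-52258218, plus strand of mm9), which STING and TLR3 signaling activate by phosphorylation, was 18.5, 17.9, 16.6, 19.2 and 21.7 RPKM in AdCMV livers and 23.1, 21.2, 25.5, 31.5 and 17.9 RPKM in AdVEGFA livers. AdVEGFA replicate 4 was the highest and replicates 2 and 5 lay within the AdCMV range. Its log2 fold change was 0.32 (95% interval -0.08 to 0.72, adjusted p 0.220 by limma), and its sign turned after median-ratio scaling (-0.08). Irf5 (chr6:29479282-29487320, plus strand of mm9), which acts below MyD88, was 6.995, 9.30, 8.99, 4.56 and 10.6 RPKM in AdCMV livers and 14.4, 14.7, 13.5, 14.7 and 10.3 RPKM in AdVEGFA livers. Of the AdVEGFA mice, 4 were above all AdCMV mice and replicate 5 was just below AdCMV replicate 5, and AdCMV replicate 4 was the lowest.

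Irf5 was the only 1 of the 10 genes to be higher at an adjusted p under 0.05, where 21.9% of all genes tested were higher and 2.23% lower at that level with any fold. Its log2 fold change was 0.78 (SE 0.23, 95% interval 0.30 to 1.27, adjusted p 0.0210 by limma), under the fold that a call needs. After median-ratio scaling it was 0.38 and its adjusted p was no longer under 0.05. The log2 ratio of Irf5 to Irf3 was -1.39, -0.94, -0.88, -2.05 and -1.03 in AdCMV livers and -0.67, -0.52, -0.91, -1.09 and -0.79 in AdVEGFA livers. Irf5 was below Irf3 in all 10 mice, and the ratios overlapped between the groups.

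**Figure D2:**
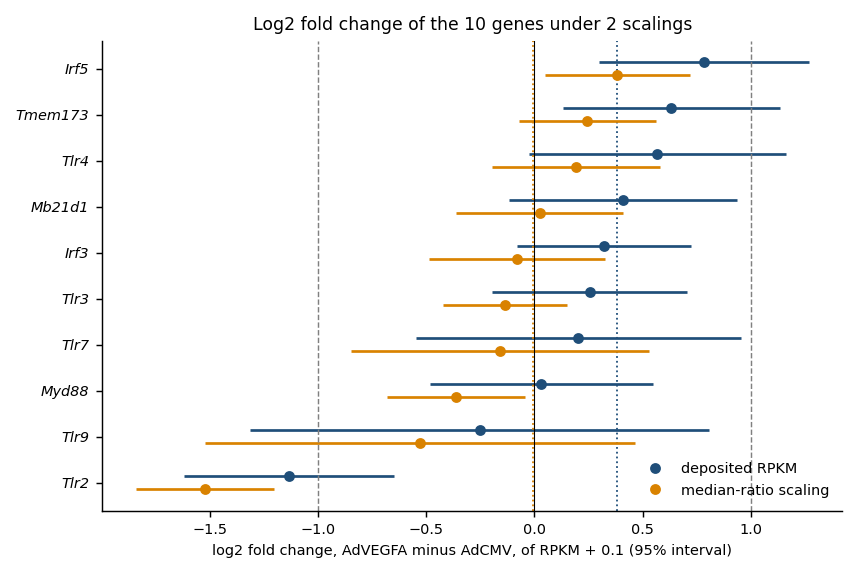
Log2 fold change (AdVEGFA minus AdCMV, of RPKM + 0.1) of the 10 genes with its 95% interval, on the deposited RPKM and after median-ratio scaling. Dashed lines stand at the log2 fold changes of -1 and 1 that a call needs, and dotted lines at the median of all genes tested under each scaling, 0.38 and -0.0044; Tlr2 is the gene beyond -1 under both.

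The wider pathway was followed with 100 further genes in 10 lists, all of them in the table, of which 91 passed the filter. Among these, limma on the deposited RPKM called 13 lower and 2 higher. The lower calls numbered 25 after median-ratio scaling, beside 2 higher. The lower calls were in the lists of chemokines and cytokines, interferon-stimulated genes and feedback inhibitors, with 1 in the other cytosolic sensors. The higher calls were in the adenovirus receptors. Whether the 10 genes had a part in the lower calls was not tested. Where a gene is given by a pair of means, the first is that of AdCMV livers and the second that of AdVEGFA livers. The median log2 fold changes of the lists are set beside 0.38 for all genes tested, or -0.0044 after median-ratio scaling.

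**Figure D3:**
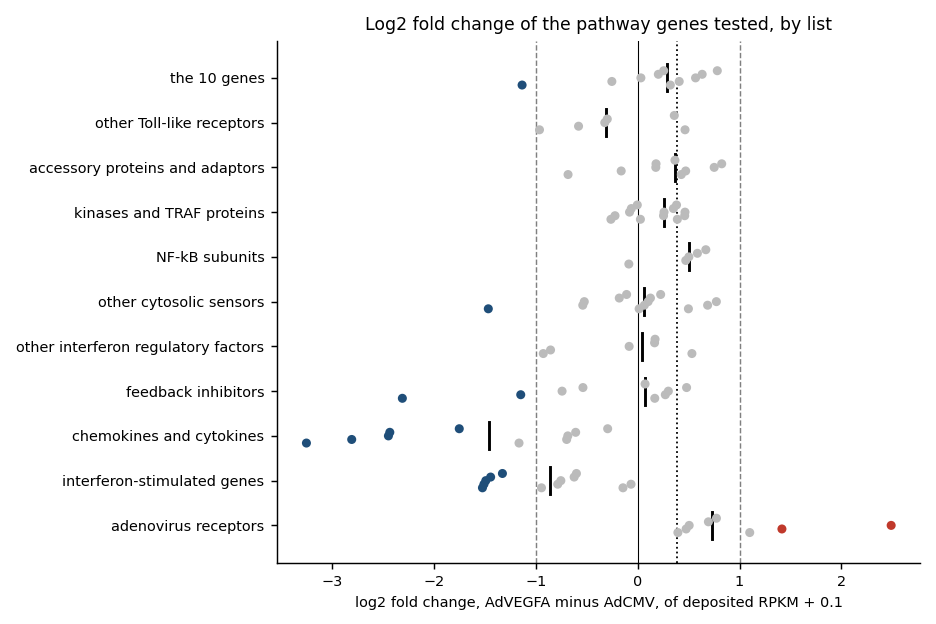
Log2 fold change (AdVEGFA minus AdCMV, of deposited RPKM + 0.1) of each pathway gene tested, by list, with genes called lower in blue, called higher in red and not called in grey. Black bars mark the median of each list, the dotted line the median of all genes tested (0.38) and the dashed lines -1 and 1; the chemokines and cytokines lie furthest to the left.

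Of 8 other Toll-like receptor genes, 6 passed the filter and none was called by limma on the deposited RPKM, with 0 higher and 1 lower at an unadjusted p under 0.05, or 0 and 4 after median-ratio scaling, and none called by limma voom. Their median log2 fold change was -0.31, or -0.67 after median-ratio scaling. The most abundant were Tlr12 (2.38 RPKM in AdCMV and 1.82 in AdVEGFA livers), Tlr13 (1.38 and 1.88 RPKM), a receptor for bacterial ribosomal RNA, and Cd180 (1.82 and 1.08 RPKM). Without AdCMV replicate 2, 1 gene of the list was called lower. Tlr5, the flagellin receptor, was called lower after median-ratio scaling, at a log2 fold change of -1.30. Tlr5 passed the filter only through its mean of 1.04 RPKM in AdCMV livers, where it was high, against 0.457 RPKM in AdVEGFA livers. It was chosen for naming after its values were seen.

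Accessory proteins and further adaptors of the receptors (10 genes) gave 9 genes tested and no call by limma or limma voom, with 3 higher and 1 lower at an unadjusted p under 0.05, or 0 and 2 after median-ratio scaling. Their median log2 fold change was 0.37, and -0.03 after median-ratio scaling. Hsp90b1, the endoplasmic reticulum chaperone of Toll-like receptors, was at 476 RPKM in AdCMV and 434 RPKM in AdVEGFA livers. Tirap, the bridging adaptor of TLR2 and TLR4, was at 19.2 and 31.0 RPKM, with a log2 fold change of 0.75 (adjusted p 0.0431 by limma) that did not reach the fold of a call. Lbp, the lipopolysaccharide-binding protein that hepatocytes secrete, was at 30.8, 28.8, 32.8, 31.0 and 30.5 RPKM in AdCMV livers and 12.8, 11.2, 20.3, 48.8 and 17.95 RPKM in AdVEGFA livers. Of the AdVEGFA mice, 4 were below every AdCMV mouse and replicate 4 was above them all, and Lbp was called lower after median-ratio scaling (-1.08) and without AdVEGFA replicate 4 (-1.02). Without AdCMV replicate 3, 1 gene of the list was called higher.

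None of the 13 kinase and TRAF genes that carry the signal was called by limma or limma voom, and 0 had an unadjusted p under 0.05 in either direction on the deposited RPKM. None was called with median-ratio scaling either, where 6 were lower and 0 higher at an unadjusted p under 0.05. Their median log2 fold change was 0.25, and -0.15 after median-ratio scaling. Irak1, the kinase recruited by MyD88, was at 27.4 and 32.6 RPKM, Chuk, for the IkB kinase subunit alpha, at 20.7 and 19.6 RPKM, and Tab2, an adaptor of the kinase TAK1, at 16.7 and 19.99 RPKM in AdCMV and AdVEGFA livers. The log2 fold changes of Irak1 and Tab2 were above 0 on the deposited RPKM (0.25 and 0.26) and below 0 after median-ratio scaling. That of Chuk (-0.06) turned above 0 without AdCMV replicate 3 (0.084) and without AdVEGFA replicate 4 (0.059). After median-ratio scaling Chuk was at -0.46 (adjusted p 0.0383 by limma), with all AdVEGFA mice below all AdCMV mice. Ikbkg (-0.66, adjusted p 0.00287), Tbk1 (-0.48, adjusted p 0.0151) and Traf3 (-0.39, adjusted p 0.0489) were also lower there without overlap, under the fold of a call. These 3 were chosen for naming after their values were seen. The 5 NF-kB subunit genes were not called either, with 3 higher at an unadjusted p under 0.05 and none called by limma voom. Median-ratio scaling left 0 subunits higher and 1 lower at an unadjusted p under 0.05. Rela was at 12.7 and 17.4 RPKM, Nfkb1 at 7.05 and 10.8 RPKM and Nfkb2 at 4.72 and 7.03 RPKM. The median log2 fold change of the subunits was 0.50, and 0.11 after median-ratio scaling.

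Among 14 other cytosolic sensors and inflammasome genes, 13 were tested and Zbp1 was called lower, with 1 higher and 1 lower at an unadjusted p under 0.05, or 1 and 6 after median-ratio scaling. The higher gene was Ddx41, with a log2 fold change of 0.77 (adjusted p 0.0138 by limma), or 0.37 (adjusted p 0.0372) after median-ratio scaling, under the fold of a call and with overlap, and it was chosen for naming after its values were seen. Zbp1, a sensor of Z-form nucleic acids that interferon induces, was 22.6, 23.5, 45.9, 30.1 and 33.4 RPKM in AdCMV livers and 11.9, 10.4, 15.7, 6.82 and 11.1 RPKM in AdVEGFA livers. Every AdVEGFA mouse was below every AdCMV mouse. Zbp1 had a log2 fold change of -1.47 (SE 0.24, adjusted p 0.000303 by limma), and -1.87 after median-ratio scaling. The RNA sensor gene Ifih1 (MDA5) was at 19.4 and 17.1 RPKM and the DNA sensor gene Ifi204 at 17.2 and 18.8 RPKM, and neither was called. After median-ratio scaling Ifih1 was at -0.58 (adjusted p 0.0123 by limma), with all AdVEGFA mice below all AdCMV mice. Dhx58 (-0.93, adjusted p 0.0137), Pycard (-0.92, adjusted p 0.0330) and Ddx58 (-0.51, adjusted p 0.0248) were also lower there, under the fold of a call, and were named after their values were seen. The sign of Ifi204 (0.13) turned after median-ratio scaling (-0.27) and without AdVEGFA replicate 1 (-0.0039). The median of the list was 0.07, and -0.33 after median-ratio scaling.

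Of 7 other interferon regulatory factor genes, 6 were tested and none was called on the deposited RPKM by limma or limma voom, with 1 higher and 2 lower at an unadjusted p under 0.05, or 0 and 3 after median-ratio scaling. Irf7, which amplifies the interferon response, was 53.4, 55.8, 63.4, 54.2 and 57.8 RPKM in AdCMV livers and 38.5, 29.2, 40.2, 18.8 and 27.8 RPKM in AdVEGFA livers. Irf1, which interferon gamma induces, was 25.3, 29.5, 40.7, 27.7 and 39.1 RPKM in AdCMV livers and 18.3, 17.8, 18.2, 15.7 and 18.1 RPKM in AdVEGFA livers. For both genes all AdVEGFA mice were below all AdCMV mice. The log2 fold change of Irf7 was -0.93 (adjusted p 0.00419 by limma) and that of Irf1 was -0.85 (adjusted p 0.00324), short of the fold of a call. After median-ratio scaling both were called lower, Irf7 at -1.33 and Irf1 at -1.26, and Irf7 was also called without AdVEGFA replicate 1 (-1.02) and without AdVEGFA replicate 3 (-1.03). Irf9, which acts below the type I interferon receptor, was at 13.2 and 14.9 RPKM and not called, with a sign that turned after median-ratio scaling (0.17 and -0.23). The median of the list was 0.04, and -0.36 after median-ratio scaling.

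Among 9 feedback inhibitor genes, Socs1 and Usp18 were called lower and none was called higher by limma or limma voom, with 3 lower and 1 higher at an unadjusted p under 0.05. After median-ratio scaling 3 were called lower and 0 higher, with 4 lower and 0 higher at an unadjusted p under 0.05. The call added there was Tnfaip3, for the NF-kB inhibitor A20, at -1.12 (-0.74 on the deposited RPKM), chosen for naming after its values were seen. Socs1, which restrains JAK kinases downstream of interferon receptors, was 8.64, 11.7, 11.0, 4.801 and 5.72 RPKM in AdCMV livers and 2.93, 1.44, 2.21, 1.32 and 0.611 RPKM in AdVEGFA livers, with no overlap. The log2 fold change of Socs1 was -2.31 (SE 0.35, adjusted p 0.000124 by limma) and -2.70 after median-ratio scaling. Usp18, which removes ISG15 from proteins and restrains the type I interferon receptor, had a log2 fold change of -1.15 (adjusted p 0.00699 by limma) and of -1.55 after median-ratio scaling, with 10.9 to 23.5 RPKM in AdCMV livers and 3.85 to 11.4 RPKM in AdVEGFA livers, and overlapped through AdVEGFA replicate 1. Its call was lost without AdCMV replicate 3 (-0.98) and without AdVEGFA replicate 4 (-0.95). The NF-kB inhibitor gene Nfkbia, at 28.0 and 34.3 RPKM, and the deubiquitinase gene Cyld, at 6.57 and 7.30 RPKM, were not called, and the sign of both turned after median-ratio scaling (0.30 to -0.10 and 0.17 to -0.23). The median of the list was 0.07, and -0.26 after median-ratio scaling.

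Of the chemokine and cytokine genes, which such sensors can induce, 14 were listed and 10 tested. Among the 10, 5 were called lower and none higher by limma or limma voom, 8 were lower and 0 higher at an unadjusted p under 0.05, and 8 were called lower after median-ratio scaling. Their median log2 fold change was -1.46, and -1.82 after median-ratio scaling. Cxcl9, a chemokine for T cells that interferon gamma induces, was 153, 143, 224, 154 and 129 RPKM in AdCMV livers and 39.1, 22.6, 28.4, 4.198 and 11.4 RPKM in AdVEGFA livers. Cxcl10, which shares its receptor CXCR3, was 63.1, 83.2, 119, 54.3 and 58.4 RPKM in AdCMV livers and 16.6, 12.9, 12.6, 4.83 and 8.69 RPKM in AdVEGFA livers. For both genes the groups were far apart, and AdVEGFA replicate 4 was the lowest. Cxcl9 had a log2 fold change of -3.25 (SE 0.43, adjusted p 2.83e-05 by limma) and Cxcl10 a log2 fold change of -2.81 (SE 0.30, adjusted p 3.16e-06), or -3.65 and -3.21 after median-ratio scaling.

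The chemokine genes Ccl3 and Ccl4 and the neutrophil chemokine gene Cxcl2 were also called lower, at log2 fold changes of -2.43, -1.75 and -2.45 (adjusted p 0.000529, 0.000629 and 0.00247 by limma). After median-ratio scaling these were -2.79, -2.14 and -2.76. Ccl3 was at 2.16 to 5.38 RPKM in AdCMV and 0.227 to 1.25 RPKM in AdVEGFA livers, Ccl4 at 4.53 to 17.3 and 2.04 to 4.89 RPKM, and Cxcl2 at 1.77 to 3.65 and 0 to 1.32 RPKM. Ccl3 and Cxcl2 had no overlap between the groups, while Ccl4 overlapped through AdVEGFA replicate 1, and in AdVEGFA libraries Ccl3 and Cxcl2 rested on at most 8 reads. Ccl5, a chemokine for T cells, was at 25.7 and 15.7 RPKM, and was called lower after median-ratio scaling (-1.09). Ifnb1, the gene of interferon beta, had 0 reads in all 10 libraries, which allows at most 0.290 to 0.699 RPKM by library (3 reads, counting error only). Like Ifnb1, the other listed genes under the filter, Il6, Il12a and Il12b, had at most 3 reads in any library and were not tested.

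The promoter windows of 11 of the 14 chemokine and cytokine genes were found, with the NF-kB consensus in 5 and the ISRE core in 1, that of Cxcl10. The window of Cxcl10 (chr5:92348840-92349139, minus strand, GRCm38.p6) is shown because it held both motifs, in capitals, with the ISRE core first and the NF-kB matches after it.
Cxcl10: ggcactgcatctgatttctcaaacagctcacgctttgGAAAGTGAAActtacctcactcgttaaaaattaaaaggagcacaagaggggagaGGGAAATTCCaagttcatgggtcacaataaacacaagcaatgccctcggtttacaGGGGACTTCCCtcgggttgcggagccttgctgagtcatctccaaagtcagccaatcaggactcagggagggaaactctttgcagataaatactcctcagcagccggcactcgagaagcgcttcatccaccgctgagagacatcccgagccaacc

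Of 12 interferon-stimulated genes, all 12 were tested, 5 were called lower and none higher by limma or limma voom, 8 were lower and 0 higher at an unadjusted p under 0.05, and 9 were called lower after median-ratio scaling. All 12 had a log2 fold change below 0, with a median of -0.86, and -1.27 after median-ratio scaling. Rsad2, the antiviral enzyme viperin, was 30.9, 25.2, 52.2, 40.2 and 27.4 RPKM in AdCMV livers and 17.9, 11.2, 16.5, 6.64 and 13.4 RPKM in AdVEGFA livers. The groups were apart, with AdCMV replicate 3 highest and AdVEGFA replicate 4 lowest. Rsad2 had a log2 fold change of -1.44 (SE 0.27, adjusted p 0.000891 by limma), and of -1.84 after median-ratio scaling.

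Ifit1 (whose protein binds foreign RNA), Ifit3 and Mx1 were called lower at log2 fold changes of -1.49, -1.33 and -1.52 (adjusted p 0.00125, 0.00322 and 0.00452 by limma). After median-ratio scaling these were -1.89, -1.73 and -1.91. Ifit3 overlapped between the groups through AdVEGFA replicate 1, and Ifit1 and Mx1 did not overlap. The most abundant gene of the list, Bst2 (tetherin), was at 256 and 133 RPKM, and Isg15, a ubiquitin-like protein, at 42.2 and 23.9 RPKM. Both were called lower after median-ratio scaling, at -1.35 and -1.19. Bst2, at -0.94 on the deposited RPKM, was also called without AdCMV replicate 4 (-1.07), AdVEGFA replicate 1 (-1.01) or AdVEGFA replicate 3 (-1.07). The promoter windows of 9 of the 12 genes were found, and 7 of these held the ISRE core.

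**Figure D4:**
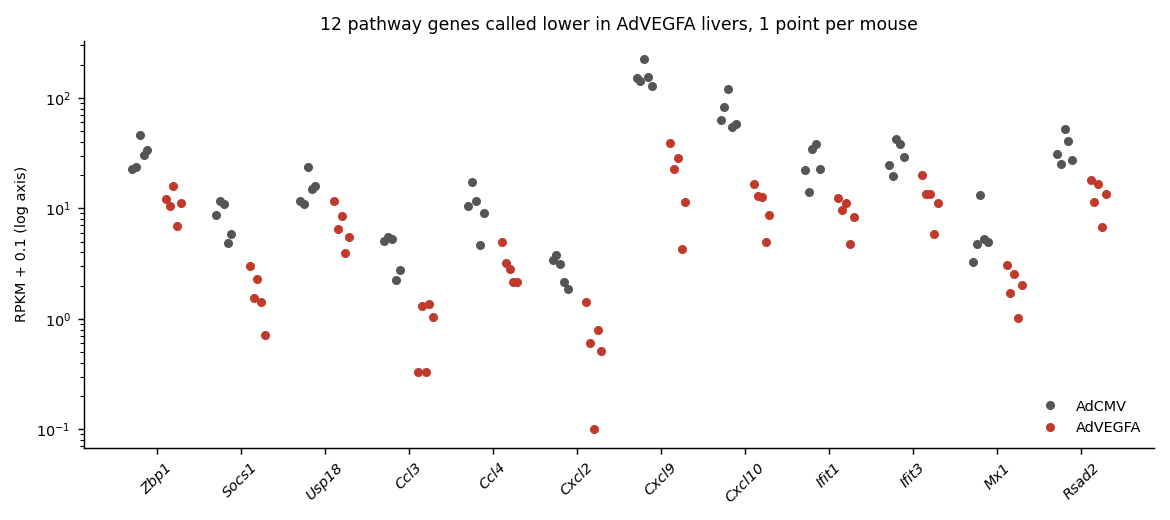
RPKM + 0.1 on a log axis, 1 point per mouse, of 12 pathway genes called lower in AdVEGFA livers. Cxcl9 and Cxcl10 show the widest gap between the groups, and Usp18, Ccl4 and Ifit3 overlap.

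The 8 genes of adenovirus receptors and scavenger receptors that bind the particle held 2 calls, both higher, with a median log2 fold change of 0.73, and 0.34 after median-ratio scaling. Itgb3, for the beta chain of an integrin through which adenovirus enters cells, was 0.383, 0.219, 0.749, 0.552 and 0.844 RPKM in AdCMV livers and 3.28, 2.92, 3.69, 3.71 and 2.94 RPKM in AdVEGFA livers. All AdVEGFA mice were above all AdCMV mice, in which the gene rested on 16 to 34 reads per library. Itgb3 had a log2 fold change of 2.49 (SE 0.30, adjusted p 1.21e-05 by limma), and of 2.13 after median-ratio scaling. Scarf1, an endothelial scavenger receptor gene, was at 1.11 to 3.21 and 4.64 to 6.02 RPKM with a log2 fold change of 1.42 (adjusted p 0.000888 by limma), also without overlap, and of 1.03 after median-ratio scaling, close to the fold of a call. Cxadr, the coxsackievirus and adenovirus receptor gene, was at 31.6 and 41.6 RPKM, the macrophage scavenger receptor gene Msr1 at 12.9 and 16.7 RPKM and the integrin gene Itgb5 at 12.2 and 16.8 RPKM, and none of the 3 was called, with a sign of Msr1 that turned after median-ratio scaling (0.40 to -0.0046).

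Several cell types of the liver were followed through marker lists, whose summed RPKM is given for each mouse. Of 11 Kupffer cell markers in the table, all 11 were tested and 3 were called higher (Clec4f, Vsig4 and Csf1r), 2 of them also after median-ratio scaling. Kupffer cell markers summed to 174, 249, 242, 145 and 309 RPKM in AdCMV livers and 472, 388, 428, 341 and 304 RPKM in AdVEGFA livers. Cd5l was the most abundant, and the highest AdCMV mouse lay just above the lowest AdVEGFA mouse. Kupffer cell markers had a median log2 fold change of 0.77, and of 0.38 after median-ratio scaling. Of 5 monocyte markers, Ly6c2 was called lower under both scalings, and it was the most abundant. Monocyte markers summed to 31.0, 31.1, 43.2, 32.2 and 30.8 RPKM in AdCMV livers and 23.1, 28.0, 19.7, 21.1 and 14.2 RPKM in AdVEGFA livers. Every AdVEGFA mouse was below every AdCMV mouse, and AdCMV replicate 3 stood above the rest. Monocyte markers had a median log2 fold change of 0.01, and of -0.32 after median-ratio scaling. Ly6c2 was at a mean of 24.5 RPKM in AdCMV and 9.80 RPKM in AdVEGFA livers (log2 fold change -1.37, adjusted p 0.000388 by limma, and -1.76 after median-ratio scaling). Of the 5 markers, 2 had a log2 fold change below 0. Cx3cr1, chosen for naming after its values were seen, went the other way, with a log2 fold change of 0.87 (adjusted p 0.0138 by limma), all AdVEGFA mice above all AdCMV mice, and 0.48 with overlap after median-ratio scaling.

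Of 10 T and NK cell markers, 7 were tested and 5 fell (Cd3e, Cd3g, Cd8a, Nkg7 and Gzmb), 6 after median-ratio scaling, and 3 when AdCMV replicate 1 or 3 or AdVEGFA replicate 4 or 5 was left out. T and NK cell markers summed to 23.8, 23.5, 39.3, 13.97 and 34.2 RPKM in AdCMV livers and 17.9, 12.7, 18.8, 12.1 and 8.98 RPKM in AdVEGFA livers. The AdVEGFA mice were mostly below the AdCMV mice, of which replicate 4 lay within their range, and Cd8b1, the most abundant marker, was not called. T and NK cell markers had a median log2 fold change of -1.29, and of -1.68 after median-ratio scaling. The 3 under the filter, named after their values were seen, were Cd4 (means of 0.402 and 0.264 RPKM) and the NK cell markers Ncr1 (0.113 and 0.377 RPKM) and Klrb1c (0.196 and 0.320 RPKM), which were not tested and whose means were higher in AdVEGFA livers for Ncr1 and Klrb1c. Of 5 neutrophil markers none was called by limma or limma voom, with 1 higher at an unadjusted p under 0.05. Neutrophil markers summed to 65.2, 135, 85.6, 41.7 and 40.3 RPKM in AdCMV livers and 58.1, 91.1, 74.1, 236 and 43.6 RPKM in AdVEGFA livers. AdVEGFA replicate 4 was far above the other mice, the groups overlapped, and S100a8 was the most abundant. Neutrophil markers had a median log2 fold change of 0.26, and of -0.14 after median-ratio scaling.

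Of 6 conventional dendritic cell markers, 5 were tested and 3 called higher (Clec9a, Zbtb46 and Cd209a). After median-ratio scaling 2 of them were called, Zbtb46 and Cd209a. These 2 genes passed the filter only through AdVEGFA livers, where they were high. Zbtb46 had means of 0.416 RPKM in AdCMV and 1.85 RPKM in AdVEGFA livers. Cd209a had means of 0.146 and 0.572 RPKM, from at most 8 reads per library. On the deposited RPKM, 1 marker was called higher when AdCMV replicate 1 or 4 or AdVEGFA replicate 1 or 2 was left out. Conventional dendritic cell markers summed to 13.4, 16.5, 23.2, 16.4 and 20.3 RPKM in AdCMV livers and 25.3, 27.4, 33.1, 29.5 and 20.7 RPKM in AdVEGFA livers. Xcr1 was the most abundant and the groups overlapped. Conventional dendritic cell markers had a median log2 fold change of 1.12, and of 0.75 after median-ratio scaling. Itgax, chosen for naming after its values were seen, went the other way, at -0.62 (adjusted p 0.183 by limma) and -0.99 (adjusted p 0.0125) after median-ratio scaling, and was not called.

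All 8 endothelial markers were called higher under both scalings. Endothelial markers summed to 31.2, 34.8, 54.1, 28.5 and 53.3 RPKM in AdCMV livers and 242, 218, 268, 284 and 227 RPKM in AdVEGFA livers. Every AdVEGFA mouse was several times above every AdCMV mouse, and Egfl7 was the most abundant. Endothelial markers had a median log2 fold change of 2.68, and of 2.30 after median-ratio scaling. All 6 sinusoidal endothelial markers were called higher, 5 of them after median-ratio scaling. Sinusoidal endothelial markers summed to 55.3, 73.1, 78.3, 46.6 and 74.1 RPKM in AdCMV livers and 243, 188, 212, 236 and 165 RPKM in AdVEGFA livers. The groups were again apart, and Clec4g was the most abundant. Sinusoidal endothelial markers had a median log2 fold change of 1.83, and of 1.44 after median-ratio scaling.

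Of 6 stellate cell markers, 4 were called higher under both scalings (Lrat, Reln, Pdgfrb and Des). Stellate cell markers summed to 64.5, 99.99, 82.2, 67.6 and 97.8 RPKM in AdCMV livers and 215, 196, 157, 147 and 102 RPKM in AdVEGFA livers. Dcn was the most abundant, and the groups were apart by a narrow margin. Stellate cell markers had a median log2 fold change of 1.54, and of 1.15 after median-ratio scaling. Of 6 hepatocyte markers, Alb and Apoa1 were called higher on the deposited RPKM and neither after median-ratio scaling, where Cyp3a11 was called lower. Hepatocyte markers summed to 18388, 22559, 18776, 18133 and 21879 RPKM in AdCMV livers and 31427, 30124, 38680, 29886 and 33710 RPKM in AdVEGFA livers. Alb was the most abundant, every AdVEGFA mouse was above every AdCMV mouse on this scale, and 1 marker was called lower without AdCMV replicate 4 or without AdVEGFA replicate 1. Hepatocyte markers had a median log2 fold change of 0.37, and of -0.03 after median-ratio scaling. Of the markers of these lists, none was listed at 0 in every library, and Ly6g was not found in the table by symbol. Emr1 is an older symbol of Adgre1, which is among the 11 Kupffer cell markers, and Chi3l3 one of Chil3, which is in the table under that symbol, was tested and not called, and is not part of the monocyte sums. On the deposited RPKM, all 8 endothelial, all 6 sinusoidal endothelial and 4 of 6 stellate cell markers were thus called higher. So were 3 of 11 Kupffer cell and 3 of 5 tested conventional dendritic cell markers. Of the dendritic cell calls, Zbtb46 and Cd209a passed the filter only through AdVEGFA livers, where they were high, and Itgax of that list went the other way. Called lower were 5 of the 7 tested T and NK cell markers and 1 of 5 monocyte markers, Ly6c2, while Cx3cr1 of that list went the other way. These calls came from the same comparison as Tlr2 and the genes that interferon induces, and their part in these results was not tested.

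**Figure D5:**
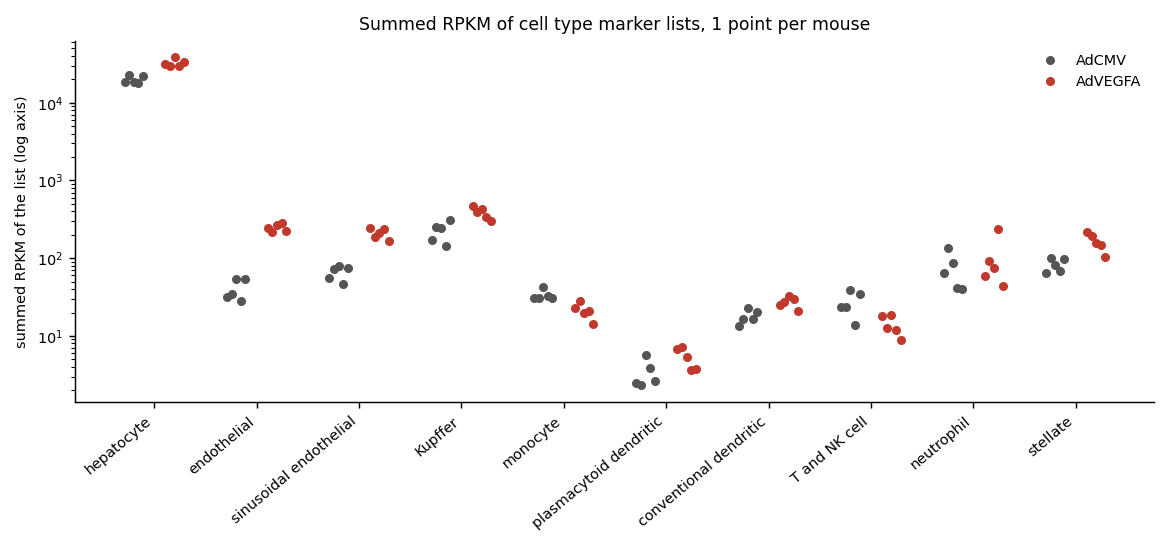
Summed RPKM of cell type marker lists on a log axis, 1 point per mouse. On the deposited RPKM, endothelial, sinusoidal endothelial, stellate cell and hepatocyte markers lie higher and monocyte markers lower in all AdVEGFA mice, while the other lists shown overlap; the median of the hepatocyte list turned below 0 and that of the monocyte list moved from 0.01 to -0.32 after median-ratio scaling.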

How the data were processed

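The authors sequenced ribosomal-depleted liver RNA, mapped it with TopHat (build mm9 and HOMER are named in the submitters' processing notes) and deposited RPKM values, scaled to the mapped tags of each library, for 24016 RefSeq transcripts and 10 mice. The 2 deposited columns of the authors' own comparison, a log fold change and an FDR, were not used. Samples were grouped by their labels, 5 mice per group, each labelled as a biological replicate. The 10 genes and all gene lists were chosen with earlier results of these data known. Named pathway genes were those called and at most 3 others of each list with the highest mean RPKM.

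Read numbers came from the steps of the RPKM values, of which at least 99.981% in each library were whole to within the rounding of the deposited value plus 0.02 reads. Between libraries of the same group the variance was 12.4 times counting noise or more, so none was the same library sequenced again. Counting noise alone cannot show whether 2 libraries came from the same mouse, and libraries of different groups were not compared in this way. The 5 transcripts without a gene symbol, at most 0.00534% of the reads of a library, were left out. Of the rest, 13933 had a mean above 0.5 RPKM in either group. They were fitted with limma 3.58.1 in R 4.3.3 (lmFit, then eBayes with its trend option) on log2(RPKM + 0.1), and p-values were adjusted over all of them by the method of Benjamini and Hochberg. Intervals are 95%. Alternatives were 3 other scalings, 2 pseudocounts, 2 filters, 1 row per symbol, a replicate block, limma treat, voom on recovered reads and leaving out each mouse. The median-ratio fits without each mouse, with the block and with voom, and the NF-kB motif, were added after seeing the data. Promoter windows are from RefSeq (GRCm38.p6), and coordinates of genes are those of the deposited table (mm9). Tables and plots were made with Python 3.11.15, pandas 2.3.3 and matplotlib 3.10.9.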

Additional observations from a re-analysis of the deposited data

Results flagged for a closer look

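In each group of 5 mice, the gap between the highest or lowest mouse and its nearest neighbour was divided by the range of the group, and shares above 0.71 are given here (chance gives about 1 in 20). The 64 measures were the RPKM of the 10 genes and of the pathway genes named by rule in the text, the 4 ratios within a library, the summed RPKM of the marker lists given in the text and the Mup share. Over these, 128 group tests found 10. Irf5 was at 10.3 RPKM in AdVEGFA replicate 5 and at 13.5 to 14.7 in the other AdVEGFA mice, a gap of 0.73 of the range. Lbp was at 48.8 RPKM in AdVEGFA replicate 4 and at 11.2 to 20.3 in the others, a gap of 0.758. Nfkb1 was at 12.5 RPKM in AdVEGFA replicate 1 and at 10.05 to 10.5 in the others, a gap of 0.801. Ifih1 was at 28.2 RPKM in AdCMV replicate 3 and at 15.7 to 18.2 in the others, a gap of 0.797. Irf1 was at 15.7 RPKM in AdVEGFA replicate 4 and at 17.8 to 18.3 in the others, a gap of 0.796. Cxcl9 was at 224 RPKM in AdCMV replicate 3 and at 129 to 154 in the other AdCMV mice, a gap of 0.74 of the range. Mx1 was at 13.1 RPKM in AdCMV replicate 3 and at 3.19 to 5.17 in the others, a gap of 0.799. Scarf1 was at 6.02 RPKM in AdVEGFA replicate 1 and at 4.64 to 4.796 in the others, a gap of 0.888. The summed RPKM of monocyte markers was 43.2 in AdCMV replicate 3 and 30.8 to 32.2 in the others, a gap of 0.891. The summed RPKM of neutrophil markers was 236 in AdVEGFA replicate 4 and 43.6 to 91.1 in the others, a gap of 0.754.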

How the results depend on the processing

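The count of genes called among the 10, 1 lower and 0 higher, held in 18 of 21 other settings. It was 0 lower with a pseudocount of 1 and with limma treat, and 0 to 1 when each mouse was left out (0 without AdCMV replicate 3). Over 32 alternatives other than treat, the log2 fold change of Tlr2 ran from -1.60 to -0.90. After median-ratio scaling, the 12 added alternatives, chosen after seeing the data, all had 1 of the 10 genes lower, with Tlr2 at -1.59 to -1.43 when each mouse was left out. The difference in the log2 ratio of Tlr2 to Tlr4 was -1.26 with a pseudocount of 1 and -1.70 with 0.1. Tlr9 was under the filter with a minimum of 1 RPKM and when either of 2 AdCMV mice was left out.

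With median-ratio scaling, upper quartile scaling and library totals without Mup genes, 1082, 1125 and 1059 genes were called higher and 438, 393 and 446 lower. In the same order, the pathway genes called lower were 25, 24 and 26, the chemokine and cytokine genes 8, 8 and 8, and the interferon-stimulated genes 9, 8 and 10. The cause of these shifts was not tested. A pseudocount of 1 gave 954 genes called higher. With limma treat, which by its construction asks for a larger fold, 503 genes were called higher and 36 lower, 1 pathway gene higher and 3 lower, 2 chemokine and cytokine genes lower and 0 interferon-stimulated genes lower. Leaving out each mouse gave 1425 to 2357 genes called higher and 178 to 225 lower.

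Of the 10 genes and the pathway genes named by rule, 12 that were not called changed sign, Chuk only when a mouse was left out, and the cause was not tested. Over all pathway genes tested, median-ratio scaling turned the sign of 22 of 91. Under the 3 scalings in that order, Tlr3 was at -0.14, -0.094 and -0.15, Tlr7 at -0.16, -0.12 and -0.17, Myd88 at -0.36, -0.32 and -0.37 and Irf3 at -0.080, -0.036 and -0.091. Of the other pathway genes, Irak1 was at -0.15, -0.10 and -0.16, Tab2 at -0.14, -0.097 and -0.15, Ifi204 at -0.27, -0.23 and -0.29, Irf9 at -0.23, -0.18 and -0.24, Nfkbia at -0.10, -0.056 and -0.11 and Cyld at -0.23, -0.18 and -0.24. Msr1 was at -0.0046 with median-ratio scaling and -0.016 without Mup genes. When each mouse was left out, Myd88 ran from -0.083 to 0.17, Ifi204 from -0.0039 to 0.31 and Chuk from -0.18 to 0.084.

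Replicate numbers were not taken as pairs, because the labels do not say that mice were paired. The profiles of mice with the same number correlated at 0.036, 0.109, 0.008, 0.096 and 0.291. The best match had the same number for replicates 1, 4 and 5, and these values do not decide whether mice were paired. With the replicate number as a block, 1933 genes were called higher and 256 lower, and 1 of the 10 genes lower. Tlr9 rested on 4 to 23 reads per library.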
